A study of Homo sapiens with 24 samples.

Results

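Annexins, their S100 partners and the ferlins form a set of calcium-dependent membrane proteins, and 10 of their genes were followed here in 4 human lung cancer cell lines. The data list 60623 genes for DMS454 and for H1694, but 21306 for A549 and 20707 for H1299. That a gene is not listed for A549 or H1299 does not show that it had no reads. The 10 genes are the annexins ANXA1 to ANXA6, the S100 genes S100A10 and S100A11, and the ferlins MYOF (myoferlin) and DYSF (dysferlin). They were chosen as a named family, with results of these same libraries in view: ANXA2 differed in opposite directions between the non-small cell and the small cell lines, and MYOF differed strongly in H1694. Their own differences between arms are therefore given as a description with no p-value, and a count of those past the threshold is set beside the share of all genes.

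Annexins bind acidic phospholipids at the inner face of the plasma membrane when calcium rises, and crosslink, curve or cap the membrane there. S100 proteins are small calcium-binding dimers. S100A10 is the exception that holds its open form without calcium and joins annexin A2 in a heterotetramer, while S100A11 pairs with annexin A1 and is known also to bind annexin A2. Ferlins are large membrane-anchored proteins with several C2 domains, known for vesicle fusion and for resealing of the torn sarcolemma in muscle, and annexins A1, A2, A5 and A6 are recruited to such wounds. In carcinoma cells, annexin A2 with S100A10 is also known as a surface receptor for plasminogen.

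The series held 24 RNA libraries, 3 from each of 8 groups, which the study's design describes as independent biological replicates. A549 is a lung adenocarcinoma line and H1299 a non-small cell line from a lymph node metastasis, and each was sequenced as cells overexpressing HEPACAM2 (OE) and as control cells labelled wild type. DMS454 and H1694 were sequenced as cells labelled CRISPR, with a HEPACAM2 knockdown genotype, and as cells labelled control, with a wild type genotype. The labels name no vector, promoter, guide or clone in words for any arm. Library codes hold Hp for OE and Lv for control libraries in A549 and H1299. In DMS454 and H1694 they hold G for libraries labelled control and pL for those labelled CRISPR. What these codes stand for is not explained in the labels. HEPACAM2 encodes an immunoglobulin-superfamily adhesion protein, and the study asks what it does to contacts between cells and matrix.

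HEPACAM2 itself was checked first. It had 6074, 5864 and 6084 normalized counts in the A549 OE libraries, against 1.1, 0 and 0 in the A549 controls, and 27257, 24999.9 and 23710 in the H1299 OE libraries, against 3.49, 3.07 and 2.08 in the H1299 controls. In the small cell lines its RNA went against the label. The DMS454 libraries labelled CRISPR had 11460.0, 11256 and 10844 normalized counts and those labelled control 6430, 6543 and 6677. In H1694 the libraries labelled CRISPR had 10124, 10545 and 10399 and those labelled control 3433, 3551 and 3688. Differences below are OE minus control, or labelled CRISPR minus labelled control, which in all 4 lines is the arm with more HEPACAM2 RNA minus the arm with less. If the titles of DMS454 or H1694 had been exchanged, the direction relative to the edit would turn, while that relative to the HEPACAM2 RNA would stay. Whether they were exchanged could not be settled from the files.

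Depth was 12704476 to 31770858 reads per library. Of the 24 libraries, 4 stood apart from their own replicates: control replicate 1 and OE replicate 1 of H1299, labelled CRISPR replicate 3 of DMS454 and labelled CRISPR replicate 1 of H1694. Values without them are given where leaving them out changes a call or a direction or moves a value by over 1.5 times. Among the markers of cell identity, DMS454 and H1694 carried high neuroendocrine sums, of 167027 to 177743 normalized counts in labelled CRISPR and 177252 to 179885 in labelled control DMS454 libraries, and of 53718 to 56268 in labelled CRISPR and 57851 to 58572 in labelled control H1694 libraries. Over the 5 epithelial markers the A549 sum was 130892 to 136827 in OE and 161574 to 170341 in control cells, and the H1694 sum 195.7 to 242.1 in labelled CRISPR and 298.3 to 323.4 in labelled control cells. Over the 4 with values in H1299 it was 14295 to 16354.5 in OE and 16863 to 19595 in control cells. The DMS454 epithelial sum overlapped, at 55800 to 56285 in labelled CRISPR and 55785 to 56757 in labelled control cells. The 4 neuroendocrine markers with values in A549 summed to 266.6 to 301.7 in OE and 394.0 to 506.0 in control cells. The 5 with values in H1299 went the other way, with 211.7 to 261.3 in OE and 168.5 to 192.0 in control cells. Most of both shifts was CHGB (log2 fold change -1.14 in A549 and 0.63 in H1299). The 5 fibroblast markers with values in A549 summed to 300.9 to 337.2 in OE and 128.8 to 143.0 in control cells. Most of that rise was THY1, with means of 252.8 in OE and 66.6 in control cells. PDGFRA and PDGFRB were also higher in OE cells, at low counts, while COL3A1 was lower (39.8 against 53.3) and the LUM arms overlapped. Endothelial markers summed to 3670.5 to 3806 in labelled CRISPR and 3119 to 3189.9 in labelled control H1694 libraries, nearly all of it CDH5. The part of these marker shifts in the values of the 10 genes was not tested.

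For ANXA2, its partner S100A10 and MYOF, the 250 bases upstream of each start site are shown. They are written 5′ to 3′ on the strand of the gene, from RefSeq on GRCh38.p14. All 10 genes had an entry in that promoter table. Capitals mark matches, on either strand, to the AP-1 motif TGANTCA, the SP/KLF motif GGGCGG, the TATA box TATAAA or the TEAD motif GGAATG.
ANXA2, chr15:60397987-60398236, minus strand: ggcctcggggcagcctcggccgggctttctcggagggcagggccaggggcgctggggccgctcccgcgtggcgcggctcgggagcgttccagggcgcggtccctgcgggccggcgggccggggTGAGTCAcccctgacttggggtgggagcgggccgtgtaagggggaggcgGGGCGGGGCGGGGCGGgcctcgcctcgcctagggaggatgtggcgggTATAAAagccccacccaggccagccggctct
S100A10, chr1:151993860-151994109, minus strand: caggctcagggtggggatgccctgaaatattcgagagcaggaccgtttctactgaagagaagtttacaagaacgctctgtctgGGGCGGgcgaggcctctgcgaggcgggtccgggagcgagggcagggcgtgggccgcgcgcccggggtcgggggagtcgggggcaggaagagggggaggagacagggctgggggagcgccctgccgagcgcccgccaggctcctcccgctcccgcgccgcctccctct
MYOF, chr10:93482335-93482584, minus strand: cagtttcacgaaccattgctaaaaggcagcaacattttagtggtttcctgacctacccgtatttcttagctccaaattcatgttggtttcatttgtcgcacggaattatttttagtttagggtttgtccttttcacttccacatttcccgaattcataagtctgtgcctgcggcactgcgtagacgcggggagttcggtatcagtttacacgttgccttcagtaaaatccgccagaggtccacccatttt
The ANXA2 and S100A10 stretches lie inside the gene bounds of GENCODE 29 given below, which include transcripts that start further upstream. The ANXA2 stretch has a GC content of 78.0% and holds 1 AP-1 match, 3 overlapping GGGCGG matches and 1 TATA box. The S100A10 stretch (GC content 71.2%) holds 1 GGGCGG match. The MYOF stretch (GC content 44.4%) holds none of the motifs, so it carries no capitals. Among all 35116 promoters of the same length, TGANTCA was found in 6.57%, GGGCGG in 42.6%, TATAAA in 10.7% and GGAATG in 11.9%. Among the 10 genes, ANXA2 alone held TGANTCA, 7 held GGGCGG, ANXA1 and ANXA2 held TATAAA, and none held GGAATG. A match is a run of letters and not evidence of binding.

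The lines differed widely in the levels of most of these genes. Levels between genes and lines are given as RPKM, reads per kilobase of the principal transcript, scaled to the library's total reads (mean ± SD, n = 3 libraries), side by side and without a test, because each line was normalized in a table of its own. ANXA2 (chr15:60347134-60402883, minus strand, GRCh38) was the most abundant annexin in A549, at 1615 ± 11.5 RPKM in OE and 1541 ± 16.3 RPKM in control cells. It had 643 ± 78.3 RPKM in H1299 OE and 472 ± 53.8 RPKM in H1299 control cells. H1694 held 150.5 ± 7.60 RPKM in labelled CRISPR and 188 ± 1.68 RPKM in labelled control cells, and DMS454 32.9 ± 1.49 RPKM in labelled CRISPR and 53.0 ± 0.817 RPKM in labelled control cells. Across the 8 groups no neighbours in the order of ANXA2 levels overlapped.

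The 2 small cell lines lacked different annexins. ANXA1, a phospholipase inhibitor and anti-inflammatory annexin that stood at 731 ± 9.09 RPKM in A549 OE cells and 857 ± 19.6 RPKM in A549 control cells, had no read in any of the 6 H1694 libraries. Zero reads allow up to 0.0177 RPKM over the 3 labelled CRISPR libraries of H1694 and 0.0190 RPKM over the 3 labelled control libraries, taking 3 reads as the limit and covering counting error only. DMS454 was low in ANXA1 too, with 56 reads in its labelled CRISPR and 34 in its labelled control libraries. ANXA6, the large annexin with a duplicated core, showed the reverse, with reads in H1694 and almost none in DMS454.

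ANXA6 had 25.5 ± 1.75 RPKM in labelled CRISPR and 27.0 ± 1.28 RPKM in labelled control H1694 cells, above A549 at 20.9 ± 1.23 RPKM in OE and 18.3 ± 0.649 RPKM in control cells. In DMS454 it had 3 reads in the labelled CRISPR libraries together and none in the labelled control ones, where zero reads allow up to 0.0193 RPKM. ANXA5, whose protein is the common probe for exposed phosphatidylserine, was at 59.3 ± 2.49 RPKM in labelled CRISPR and 64.6 ± 2.12 RPKM in labelled control DMS454 cells but at 0.130 ± 0.0592 RPKM in labelled CRISPR and 0.201 ± 0.0489 RPKM in labelled control H1694 cells. S100A11 followed ANXA5 in this respect, with 24.2 ± 3.17 RPKM in labelled CRISPR and 23.1 ± 2.14 RPKM in labelled control DMS454 cells, while H1694 had 2 reads in its labelled CRISPR and 7 in its labelled control libraries.

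Of the ferlins, MYOF separated the line types and DYSF did not. MYOF (chr10:93306429-93482317, minus strand) was at 89.7 ± 5.09 RPKM in A549 OE, 47.8 ± 0.968 RPKM in A549 control, 74.9 ± 3.15 RPKM in H1299 OE and 56.5 ± 3.80 RPKM in H1299 control cells. Both small cell lines were far lower, at 0.528 ± 0.0162 RPKM in labelled CRISPR and 2.64 ± 0.153 RPKM in labelled control H1694 cells, and at 0.271 ± 0.0806 RPKM in labelled CRISPR and 0.287 ± 0.0717 RPKM in labelled control DMS454 cells. DYSF was scarce in every group, with its highest mean, 0.547 ± 0.0780 RPKM, in labelled control DMS454 cells, and its A549 control libraries overlapped those of labelled CRISPR H1694 cells. Summed over ANXA1 to ANXA6, the annexins reached 2604 ± 24.5 RPKM in A549 OE and 2679.8 ± 36.7 RPKM in A549 control cells, but 104.2 ± 2.29 RPKM in labelled CRISPR and 130.4 ± 1.46 RPKM in labelled control DMS454 cells. In H1694 most of that sum was ANXA2, with 83.2% ± 0.0685 in labelled CRISPR and 85.1% ± 0.603 in labelled control cells.

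**Figure D1:**
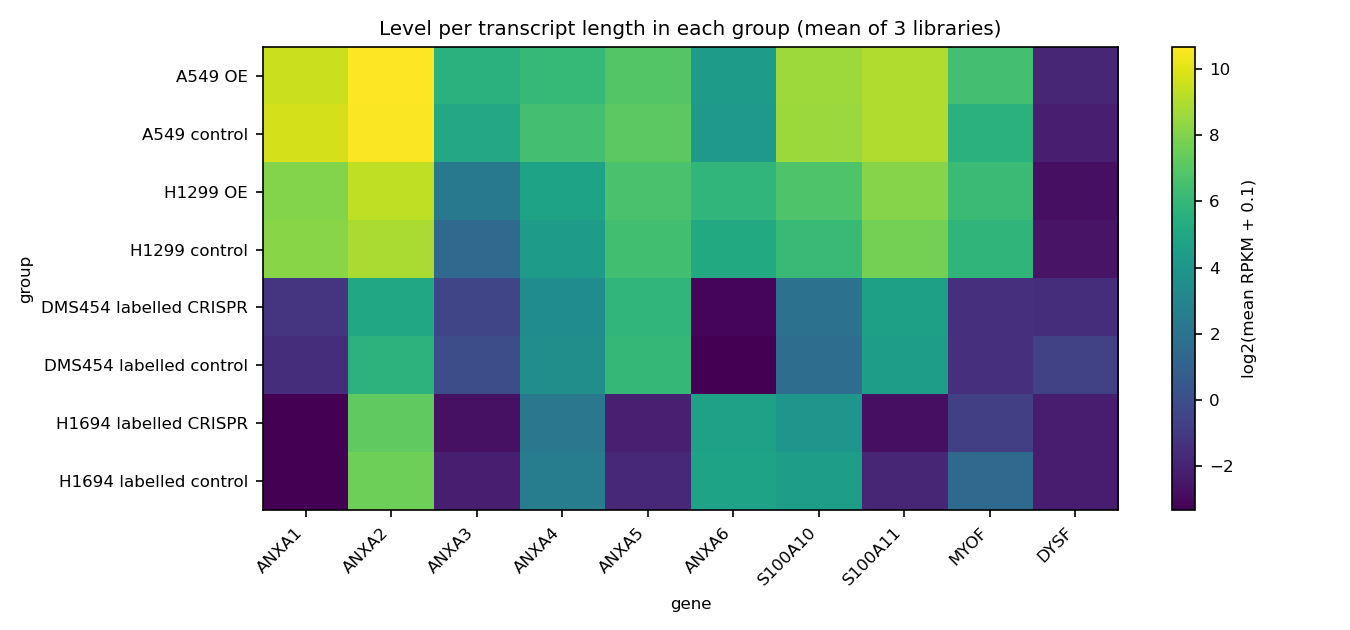
Mean level of each of the 10 genes (columns) in each of the 8 groups (rows) on the scale log2(mean RPKM + 0.1), 3 libraries per group, with brighter colour for higher levels. ANXA1 is dark in both H1694 rows, ANXA6 in both DMS454 rows, and ANXA2 is the brightest annexin in A549, H1299 and H1694, with DMS454 higher for ANXA5.

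ANXA2 was higher in the arm with more HEPACAM2 RNA in both non-small cell lines and lower in it in both small cell lines. That is the pattern the genes were chosen for. Both non-small cell lines were compared as OE against control, and both small cell lines by their CRISPR label. Line type and kind of contrast therefore cannot be told apart here. In A549 it had 54918.5, 53545 and 53882 normalized counts in OE libraries and 51343, 51616 and 50803 in control libraries. In H1299 it had 20933, 16634 and 17227 in OE libraries and 12304.5, 15384 and 14723.5 in control libraries. Neither line had an overlap, but the A549 arms differed by 5.58% and the H1299 arms were stretched apart by both libraries numbered 1.

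The log2 fold change of ANXA2 was 0.08 (SE 0.03) in A549 and 0.37 (SE 0.11) in H1299. The call was not stable to leaving out a library: in A549 it was kept in 1 of the 6 such fits, and in H1299 in 0 of 6. The log2 fold change ran from 0.07 to 0.09 in those fits in A549 and from 0.27 to 0.43 in H1299. Without both H1299 libraries numbered 1, the log2 fold change was 0.17.

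In DMS454 the ANXA2 values were 1172.0, 1219 and 1154 normalized counts in the labelled CRISPR libraries and 1931, 1897 and 1963 in the labelled control libraries. In H1694 they were 6505, 6085 and 5962.5 in the labelled CRISPR libraries and 7492, 7605 and 7502 in the labelled control libraries. All 3 libraries labelled CRISPR lay below all 3 labelled control in each line, with a wider gap in DMS454. The log2 fold change was -0.71 (SE 0.05) in DMS454 and -0.29 (SE 0.04) in H1694, and it ranged from -0.73 to -0.69 and from -0.32 to -0.26 when each library was left out in turn. In bulk RNA such as this, fewer cells that express a gene and less of its RNA per cell cannot be told apart.

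Reads of ANXA2 could in part come from processed copies of the gene. The reads counted for ANXA2P2 were 0.236% of those of ANXA2 in A549, 0.271% in H1299, 0.223% in DMS454 and 0.192% in H1694. How reads that match both were counted is not given in the sources used here, so a share of each count is uncertain.

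S100A10 (chr1:151982915-151994390, minus strand), whose protein depends on annexin A2 for its own stability, did not track ANXA2 in every line. In A549 it had 9705.5, 9251.5 and 8982 normalized counts in OE and 8944, 8561 and 8915 in control libraries, a log2 fold change of 0.08 (SE 0.04). In H1299 it had 2111, 2312 and 2388 in OE and 1541, 1449 and 1442 in control libraries, a log2 fold change of 0.62 (SE 0.08). The H1299 arms lay well apart in all 6 libraries, whereas in A549 the lowest OE library was just above the highest control.

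In H1694 S100A10 had 504.4, 453.4 and 486.7 normalized counts in labelled CRISPR and 659.9, 659.2 and 662.2 in labelled control libraries, with a log2 fold change of -0.46 (SE 0.07). In DMS454 it had 83.2, 68.8 and 136.6 in labelled CRISPR and 89.6, 81.0 and 75.1 in labelled control libraries, with a log2 fold change of 0.17 (SE 0.22). The H1694 arms were apart and the DMS454 arms overlapped. The DMS454 value turned to -0.11 without labelled CRISPR replicate 3.

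The ratio of the partners, S100A10 RPKM over ANXA2 RPKM, was 0.240 ± 0.00705 in A549 OE and 0.240 ± 0.00728 in A549 control cells, and 0.176 ± 0.0305 in H1299 OE and 0.148 ± 0.0236 in H1299 control cells. In DMS454 it was 0.0990, 0.0787 and 0.165 in the labelled CRISPR libraries and 0.0647, 0.0595 and 0.0533 in the labelled control libraries. In H1694 it was 0.109 ± 0.00497 in labelled CRISPR and 0.122 ± 0.00121 in labelled control cells. The A549 arms had the same mean ratio to 3 digits, and the ratio was higher in all 3 labelled CRISPR libraries of DMS454, and lower in those of H1694, with an overlap in H1299 (SD, n = 3 libraries each).

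S100A11, the partner of annexin A1, had 2803, 2787 and 2896 normalized counts in H1299 OE and 2228, 2223 and 2330.5 in H1299 control libraries, with no overlap and a log2 fold change of 0.32 (SE 0.07). Its A549 arms overlapped, with a log2 fold change of 0.02 (SE 0.04). Those of DMS454 overlapped too, at 0.04 (SE 0.12), or -0.08 without labelled CRISPR replicate 3. In H1694 it was below the filter, a mean of 10 normalized counts in at least 1 arm. S100A10 and S100A11 both lie on chromosome 1 and were each higher in H1299 OE cells, in every library.

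**Figure D2:**
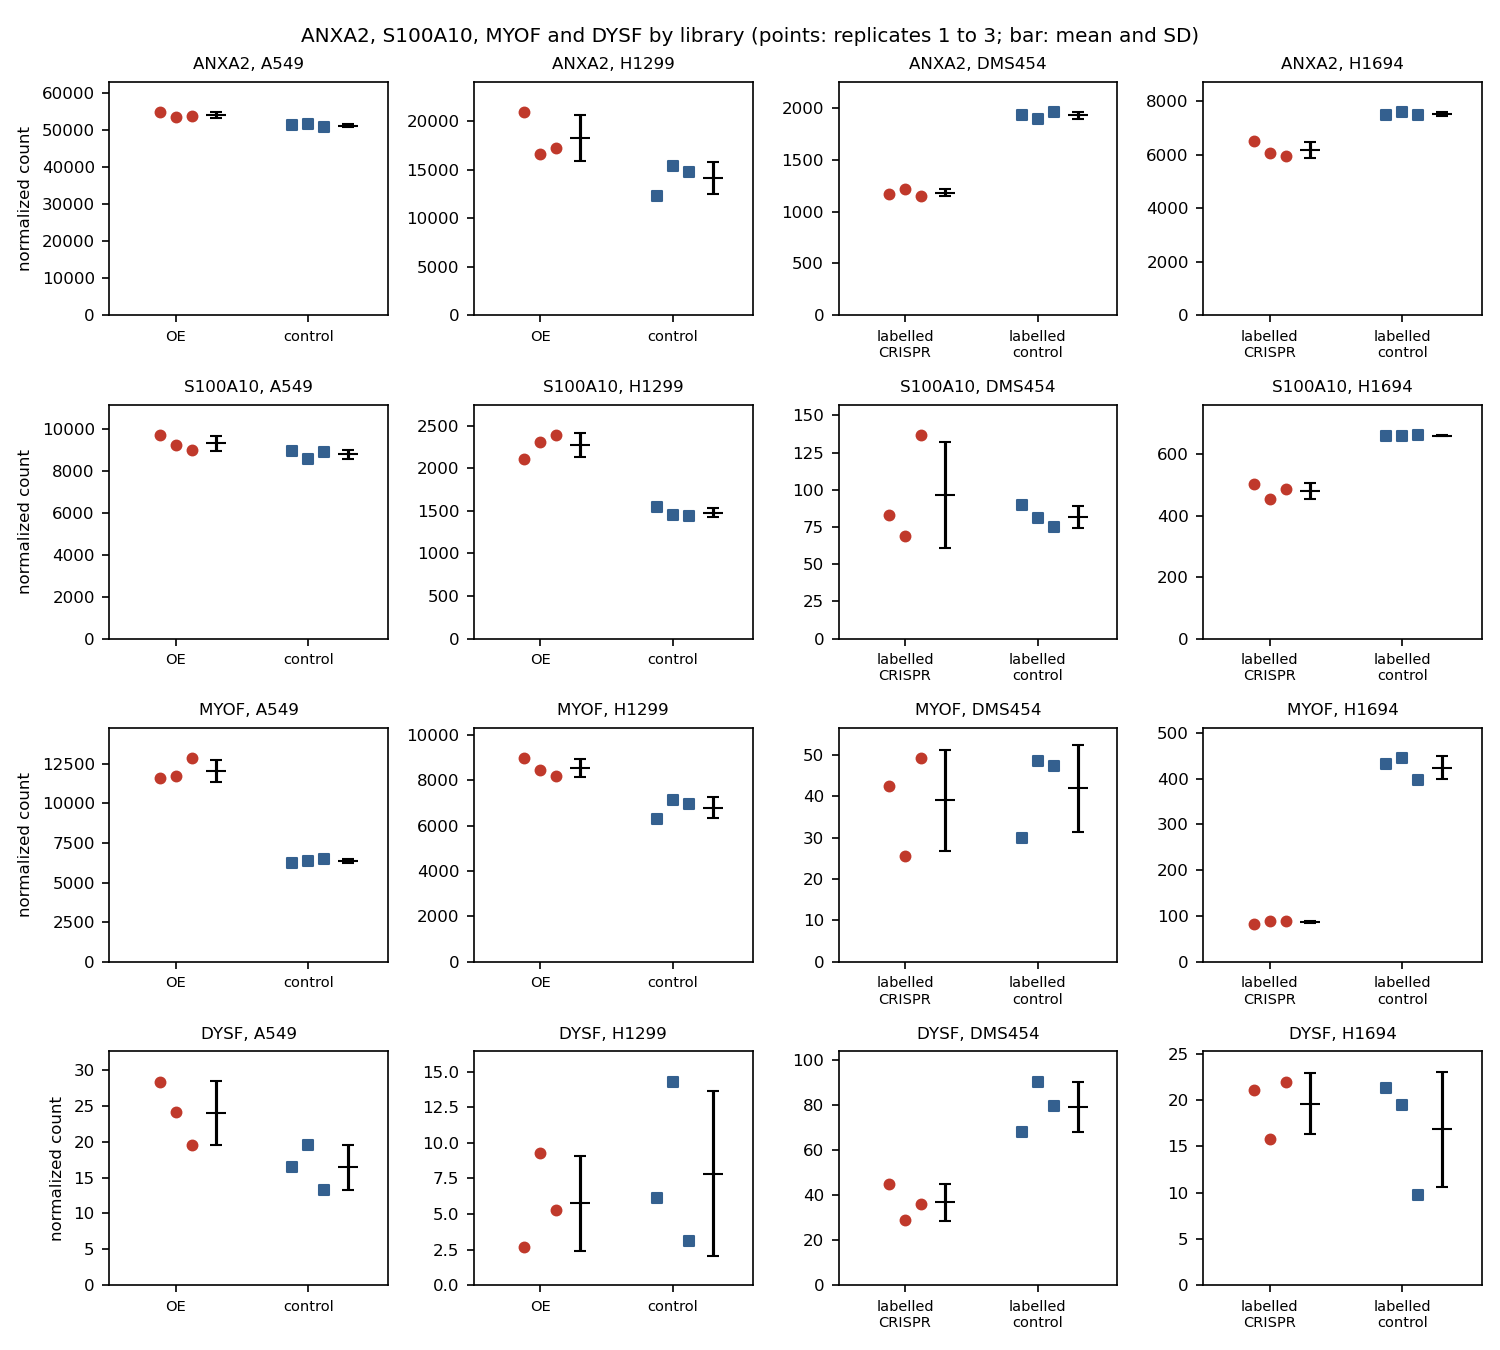
Normalized counts of ANXA2, S100A10, MYOF and DYSF (rows) in each line (columns), 1 point per library in replicate order, with the mean and SD beside them. Each vertical axis starts at 0 and has its own range: MYOF in H1694 lies between 83.5 and 89.3 in labelled CRISPR libraries and between 396.6 and 443.7 in labelled control libraries, while DMS454 labelled CRISPR replicate 3 stands above the rest for S100A10.

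The other annexins differed most between the arms of A549 and H1299, and not in one direction. All genes differed more there too. Their median absolute log2 fold change was 0.21 in A549 and 0.28 in H1299, against 0.16 in DMS454 and 0.14 in H1694. ANXA1 had 32939, 31680.5 and 32223 normalized counts in A549 OE and 38156, 37550.2 and 36968 in A549 control libraries, without overlap, and its log2 fold change was -0.22 (SE 0.03). In H1299 its arms overlapped at 11455, 9758 and 9366 in OE and 9720.1, 11805 and 12126 in control libraries, with a log2 fold change of -0.14 (SE 0.11). Without both H1299 libraries numbered 1 that value was -0.32. In DMS454 the gene had 5.82 to 23.9 normalized counts in labelled CRISPR and 8.15 to 18.1 in labelled control libraries, and its log2 fold change of 0.18 (SE 0.48) ran from -0.20, without labelled CRISPR replicate 3, to 0.73.

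ANXA3, once described as a placental anticoagulant protein, was higher in OE cells of both lines. It had 1587, 1478 and 1682 normalized counts in A549 OE and 1112, 1120.0 and 1187 in A549 control libraries, a log2 fold change of 0.47 (SE 0.05). In H1299 it had 139.1, 139.3 and 136.2 in OE and 69.8, 67.5 and 98.8 in control libraries, a log2 fold change of 0.83 (SE 0.17). In DMS454 it had 23.3, 21.1 and 25.3 in labelled CRISPR and 32.6, 28.5 and 34.8 in labelled control libraries, also without overlap, at -0.44 (SE 0.23). H1694 had 8 reads in the labelled CRISPR and 16 in the labelled control libraries, which is below the filter.

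ANXA4, an annexin of secretory epithelia, had opposite differences in the 2 OE lines. In A549 it had 3759, 3710.4 and 3646 normalized counts in OE and 4971, 5288 and 4805 in control libraries, a log2 fold change of -0.44 (SE 0.04). In H1299 it had 1309, 1263 and 1355 in OE and 984.2, 1132 and 1053.5 in control libraries, a log2 fold change of 0.31 (SE 0.08). No library of either line crossed to the other arm, and the H1299 call was kept in 3 of the 6 fits without a library. In DMS454 ANXA4 was at -0.12 (SE 0.08), and -0.20 without labelled CRISPR replicate 3, and in H1694 at -0.27 (SE 0.10), with overlapping arms in both.

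ANXA5 had 4524, 4308.5 and 4115 normalized counts in A549 OE and 4840.4, 4893 and 4758 in A549 control libraries, with no overlap and a log2 fold change of -0.16 (SE 0.04). Its H1299 arms overlapped, at 0.13 (SE 0.07), or 0.06 without both libraries numbered 1. In DMS454 it had 2139, 2188.5 and 2387 in labelled CRISPR and 2479, 2546 and 2393 in labelled control libraries, where the gap between the arms was narrow, and its log2 fold change was -0.14 (SE 0.05), or -0.19 without labelled CRISPR replicate 3. It was below the filter in H1694.

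ANXA6, linked to membrane-cytoskeleton contacts and cholesterol transport, had 2642, 2614 and 2609 normalized counts in H1299 OE and 1563, 1805 and 1648 in H1299 control libraries, a log2 fold change of 0.65 (SE 0.08). In A549 it had 1087.5, 1017 and 1153 in OE and 923.9, 993.5 and 910.6 in control libraries, a log2 fold change of 0.20 (SE 0.05). Both lines were without overlap, and the 3 H1299 OE libraries were nearly identical. In H1694, the small cell line that expresses ANXA6, the arms overlapped, with a log2 fold change of -0.04 (SE 0.06), or -0.09 without labelled CRISPR replicate 1.

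**Figure D3:**
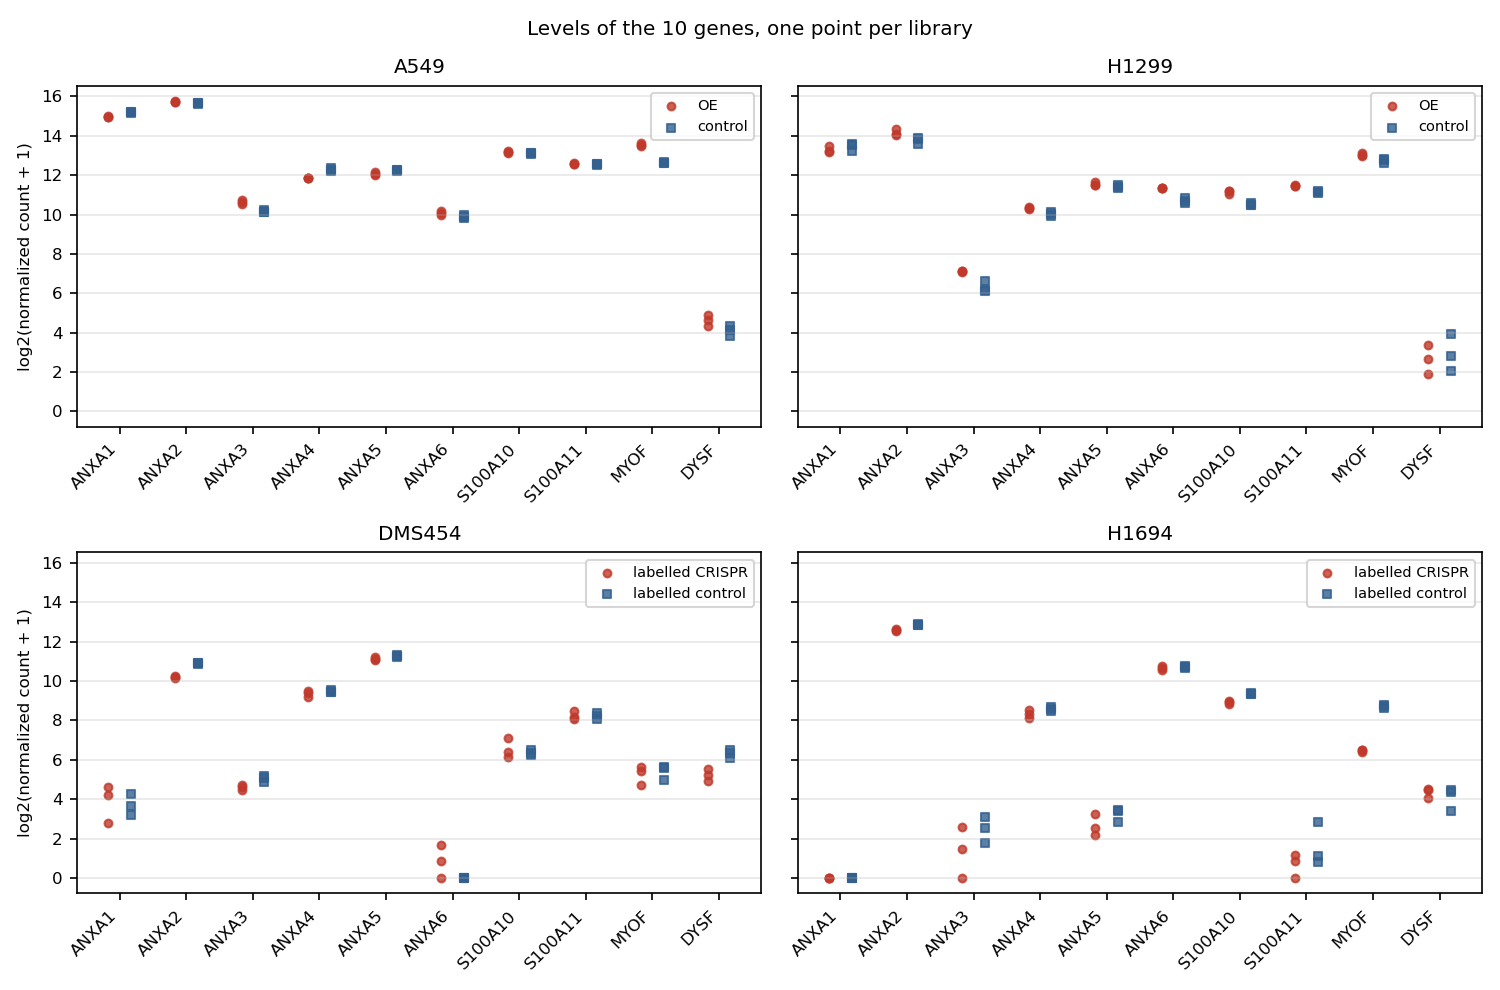
Level of each of the 10 genes in every library on the scale log2(normalized count + 1), 1 panel per line, with circles for OE or labelled CRISPR and squares for control or labelled control libraries. Genes differ more from each other than their arms do, and the widest gap between arms is that of MYOF in H1694, whose log2 fold change is -2.27.

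MYOF gave the widest separation of the 10 genes, in opposite directions in A549 OE and H1694 labelled CRISPR cells. In A549 it had 11599, 11696 and 12829.6 normalized counts in OE and 6243, 6389 and 6499 in control libraries, a log2 fold change of 0.92 (SE 0.04) or 1.89-fold higher. In H1694 it had 83.5, 88.0 and 89.3 in labelled CRISPR and 431.2, 443.7 and 396.6 in labelled control libraries, a log2 fold change of -2.27 (SE 0.10). The H1694 arms were far apart, with the fitted level of the labelled CRISPR libraries 4.83-fold lower than that of the labelled control libraries. The gene contributed 272 reads to the labelled CRISPR and 1282 reads to the labelled control libraries of H1694, and its log2 fold change ran from -2.32 to -2.24 when single libraries were left out.

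In H1299 MYOF had 8952, 8462 and 8163 normalized counts in OE and 6275, 7146 and 6949 in control libraries, without overlap, a log2 fold change of 0.33 (SE 0.08). It was 0.24 without both libraries numbered 1. In DMS454 it had 42.4, 25.5 and 49.2 in labelled CRISPR and 29.9, 48.6 and 47.3 in labelled control libraries, which overlapped, and the log2 fold change of -0.12 (SE 0.28) ran from -0.34 to 0.15 when single libraries were left out, and was -0.31 without labelled CRISPR replicate 3. The DMS454 values rest on 142 reads in the labelled CRISPR and 119 in the labelled control libraries.

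DYSF, the dysferlin gene of muscle membrane repair, had 44.9, 28.9 and 36.15 normalized counts in labelled CRISPR and 67.9, 90.2 and 79.25 in labelled control DMS454 libraries, a log2 fold change of -1.10 (SE 0.21). The arms did not overlap, and they rest on 130 reads in the labelled CRISPR and 224 in the labelled control libraries. In A549 it had 28.4, 24.15 and 19.6 in OE and 16.5, 19.6 and 13.25 in control libraries, where OE replicate 3 and control replicate 2 nearly met, at 0.52 (SE 0.30). In H1694 the arms overlapped, at 0.27 (SE 0.33), and in H1299 the gene was below the filter, with 16 reads in OE and 24 in control libraries.

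**Figure D4:**
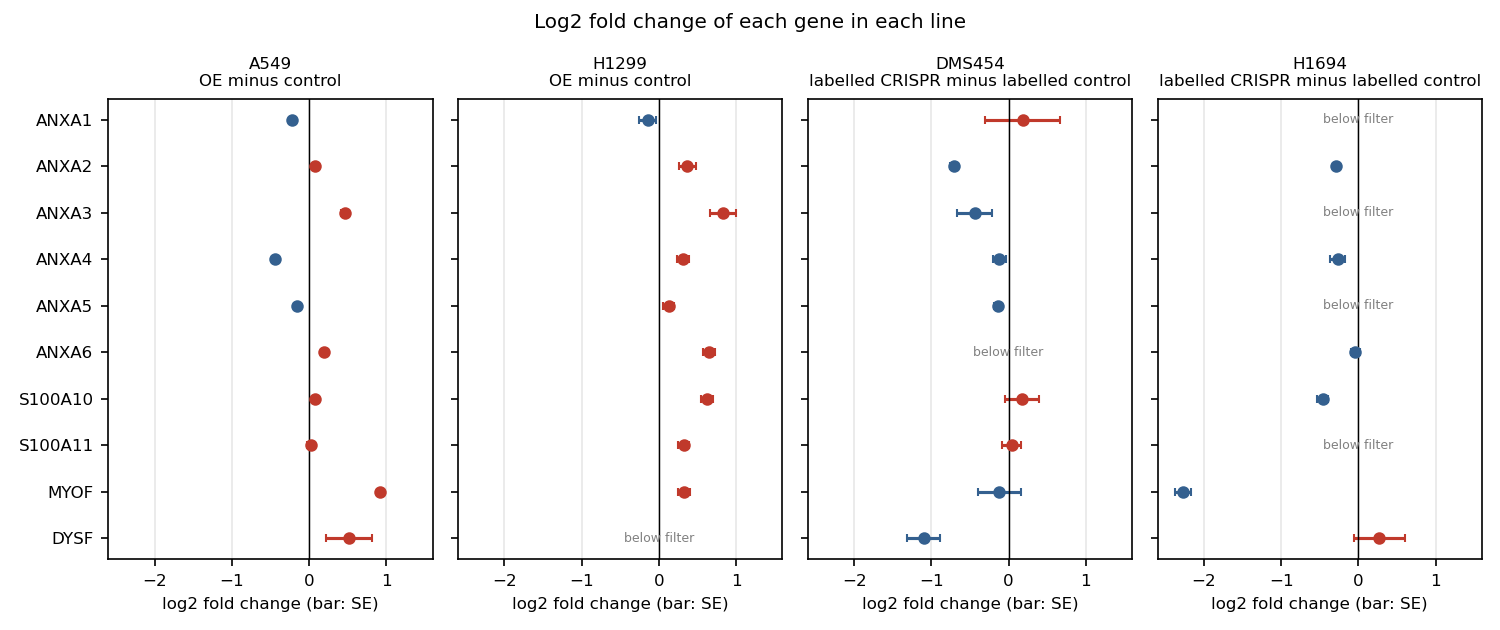
Log2 fold change of each of the 10 genes in each line, with the SE as a bar, on the log2(normalized count + 1) scale, OE minus control in A549 and H1299 and labelled CRISPR minus labelled control in DMS454 and H1694. ANXA2 lies right of 0 in A549 and H1299 and left of 0 in DMS454 and H1694, and MYOF in H1694 lies at -2.27.

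The counts of the 10 genes past the threshold, like the fold changes, describe contrasts that chose the genes. A gene was called when its Benjamini-Hochberg adjusted p over all genes of its line was under 0.05 in limma. In A549 all 10 genes passed the filter, and 4 were called higher in OE cells (ANXA2, ANXA3, ANXA6 and MYOF), where 22.5% of all 16707 genes were, and 3 lower (ANXA1, ANXA4 and ANXA5), where 21.9% were. In 9 of the 10 the arms did not overlap, as in 51.8% of all genes. In H1299 9 passed, and 7 were called higher (ANXA2, ANXA3, ANXA4, ANXA6, S100A10, S100A11 and MYOF) beside 13.5% of all 16192 genes, and 0 lower beside 15.3%. The arms did not overlap in 7 of the 9, as in 43.3% of all genes.

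In DMS454 9 passed the filter, 0 were called higher in labelled CRISPR cells beside 9.15% of all 18868 genes, and 2 lower (ANXA2 and DYSF) beside 9.72%. In 4 of the 9 the arms did not overlap, as in 36.6% of all genes. In H1694 6 passed, 0 were called higher beside 8.73% of all 17780 genes, and 3 lower (ANXA2, S100A10 and MYOF) beside 8.90%. Arms did not overlap in 3 of the 6, as in 35.0% of all genes. The medians over the genes that passed were 0.08 in A549, 0.33 in H1299, -0.12 in DMS454 and -0.28 in H1694, while the median over all genes tested was within 0.01 of 0 in each line. The counts of 0 were 0 by edgeR and DESeq2 as well, and at an unadjusted p under 0.05. The genes were chosen on these contrasts, so nothing is read from these counts.

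Around these 10 genes, 6 further lists of 74 genes in all hold the rest of the annexins, S100 genes and ferlins, and the caveolar, ESCRT and calpain machinery of membrane repair. Of 58 tested in A549, 17 rose and 22 fell in OE cells, and of 49 tested in H1299, 15 rose and 2 fell, by limma at an adjusted p under 0.05. Of 55 tested in DMS454, 2 rose and 9 fell in labelled CRISPR cells, and of 53 tested in H1694, 8 rose and 10 fell. Called in either direction were 44.4% of all genes in A549, 28.8% in H1299, 18.9% in DMS454 and 17.6% in H1694. By direction, 22.5% of all genes were called higher and 21.9% lower in A549, and 13.5% higher and 15.3% lower in H1299. In DMS454 9.15% were called higher and 9.72% lower, and in H1694 8.73% higher and 8.90% lower. These shares apply to the counts of each list below. Where a list below has 0 calls in a direction by limma, edgeR and DESeq2 also gave 0. At an unadjusted p under 0.05 those counts were 0 too, except for 1 S100 gene lower in H1694, 1 caveolar or EHD gene lower in H1299, and 2 caveolar or EHD and 2 ESCRT genes higher in DMS454. The number called in either direction was 17 in H1299, 11 in DMS454 and 18 in H1694, and it moved with single libraries. In DMS454 it was 22 without labelled CRISPR replicate 3, but 7 without labelled control replicate 2 and 6 without labelled control replicate 3. In H1299 it was 32 without both libraries numbered 1, but 11 without OE replicate 2. In H1694 it was 10 without labelled control replicate 1 and 10 without labelled control replicate 2.

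Of the other annexins, 2 rose and 2 fell among 6 tested in A549 OE cells. ANXA13, an annexin of intestinal epithelium, fell to 119.5, 116.7 and 96.6 normalized counts in OE libraries, against 613.7, 609.5 and 494.7 in control libraries (log2 fold change -2.36, limma adjusted p = 1.8e-24). ANXA8L1 rose (0.82, adjusted p = 2.7e-06), but it is a near-identical copy of ANXA8, and how the authors' counting split their reads is uncertain. ANXA11, which tethers RNA granules to lysosomes, rose in H1299 OE cells (0.38, adjusted p = 0.0096) as the 1 call of 3 tested, and the call was lost without control replicate 3. In labelled CRISPR DMS454 cells it fell (-0.45, adjusted p = 0.02), the 1 call of 5, which was lost in every fit that left out a library other than labelled CRISPR replicate 3. In H1694, 1 of 3 fell.

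The other S100 genes had 5 calls each in H1299 and A549, where 28.8% and 44.4% of all genes were called. They had 3 in DMS454 and 2 in H1694, where 18.9% and 17.6% of all genes were. In H1299, 5 of 6 tested rose in OE cells and 0 fell by limma, led by S100A16 at 815.3, 797.6 and 838.2 normalized counts in OE and 316.7, 268.9 and 264.1 in control libraries (log2 fold change 1.53, adjusted p = 5e-05), and S100A13, known for the release of a growth factor that lacks a signal peptide, rose too (0.60, adjusted p = 0.0045). In A549, 2 of 8 rose and 3 fell, among them S100P at 92.3, 87.75 and 80.7 in OE and 457.5, 410.5 and 333.8 in control libraries (-2.18, adjusted p = 1.5e-21) and S100A6 (-0.62, adjusted p = 1.4e-19). S100A6 encodes calcyclin, a partner of several annexins.

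S100A6 fell in labelled CRISPR DMS454 cells as well, to 3457, 3268 and 2963 normalized counts, against 5448.5, 5205.5 and 5317 in labelled control libraries (-0.72, adjusted p = 3.6e-06), with 3 of 8 S100 genes called lower and none higher by limma. S100A2 was another of them (-0.52, adjusted p = 0.0083), whose call was lost without labelled control replicate 3. In H1694, 2 of 9 rose in labelled CRISPR cells and 0 fell by limma. S100A8, a calprotectin subunit of myeloid cells and stressed epithelia, had 131.6, 129.4 and 161.4 in labelled CRISPR and 53.3, 48.05 and 46.1 in labelled control libraries (1.49, adjusted p = 6.7e-06), and S100A16 also rose (0.45, adjusted p = 0.0083), a call lost without labelled control replicate 2. The 5 blood cell markers had a sum of at most 14.3 in those labelled CRISPR and at most 15.8 in the libraries labelled control, with CD3E and HBB without a read.

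Caveolae buffer membrane tension and are taken up at wounds, and of their genes and those of EHD proteins 9 of 13 tested rose and 2 fell in A549 OE cells. CAV1, the scaffold of the caveolar coat, had 13414, 12753 and 13879 normalized counts in OE and 6439.6, 6732 and 6588 in control libraries (log2 fold change 1.02, adjusted p = 1.2e-27), and CAVIN1, which the coat also needs, rose by 0.86 (adjusted p = 1.8e-24). In H1299, 3 of 11 rose and 0 fell by limma, with EHD3 at 0.72 (adjusted p = 0.011) and EHD2, the ATPase of the caveolar neck, at 0.71 (adjusted p = 0.026). The EHD3 call was lost without OE replicate 2, and the EHD2 call without any one of OE replicates 2 and 3 and control replicates 2 and 3.

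In DMS454, 0 of 10 caveolar and EHD genes were called by limma. In H1694, 5 of 11 fell in labelled CRISPR cells and 1 rose. EHD4, an endosomal ATPase, had 350.0, 280.9 and 264.1 normalized counts in labelled CRISPR and 459.7, 491.0 and 516.6 in labelled control libraries (-0.72, adjusted p = 0.00013). CAVIN1 fell too (-0.52, adjusted p = 0.00074), and like MYOF it had opposite signs in A549 OE and H1694 labelled CRISPR cells.

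ESCRT proteins pinch off wounded membrane, and 7 of 18 tested fell and 1 rose in A549 OE cells. TSG101, an ESCRT-I subunit, fell by 0.41 on the log2 scale (adjusted p = 7.5e-10), and CHMP1B, an ESCRT-III subunit, by 0.37 (adjusted p = 1.7e-10). In H1299, CHMP2A rose (0.54, adjusted p = 0.0051), and VTA1, a cofactor of the VPS4 ATPase, was 1 of the 2 that fell (-0.50, adjusted p = 0.0044). In labelled CRISPR DMS454 cells the 2 calls of 18 were CHMP2B, at 596.4, 584.1 and 672.3 normalized counts against 1151, 1066 and 1203 in labelled control libraries (-0.88, adjusted p = 7.3e-06), and CHMP1B (-0.21, adjusted p = 0.0099), both lower. The CHMP1B call was lost without labelled control replicate 2 or 3. In H1694, 3 of 17 rose and 0 fell by limma, among them CHMP5 (0.17, adjusted p = 0.026), whose call was lost in 4 fits without a library, and CHMP1B (0.16, adjusted p = 0.04), whose call was lost in 5 of them.

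Among calpains, scaffolds and genes of lysosomal exocytosis, 3 of 12 rose and 7 fell in A549 OE cells, and 5 of 11 rose and 0 fell by limma in H1299 OE cells. AHNAK, a giant scaffold that binds annexin A2 with S100A10, had 9898, 10457 and 11462 normalized counts in A549 OE and 6331, 5701 and 5772 in A549 control libraries (0.84, adjusted p = 7.1e-11), and its relative AHNAK2 rose in both A549 (0.81, adjusted p = 3.1e-16) and H1299 OE cells (1.07, adjusted p = 9.5e-05). CAPN5, a calpain protease, rose in H1299 OE cells (0.94, adjusted p = 0.0025).

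AHNAK fell in labelled CRISPR DMS454 cells to 514.9, 692.9 and 563.2 normalized counts, against 824.1, 855.1 and 873.2 in labelled control libraries (-0.54, adjusted p = 0.0023), as did CAPN1, a calcium-activated protease (-0.41, adjusted p = 0.007), with 2 of 13 called higher and 3 lower. In H1694, 2 of 12 rose and 3 fell in labelled CRISPR cells. SYT7, the calcium sensor of lysosomal exocytosis, rose (0.32, adjusted p = 0.00021) and STX4, a plasma membrane SNARE, fell (-0.34, adjusted p = 0.0079). Of the other ferlins, OTOF, known for synaptic exocytosis in inner hair cells, fell there to 399.8, 439.3 and 404.8 normalized counts, against 509.4, 517.3 and 553.0 in labelled control libraries (-0.34, adjusted p = 0.0035). It was the single ferlin tested in H1694, and 1 other ferlin fell in A549, 0 were called in DMS454 and 0 were tested in H1299.

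**Figure D5:**
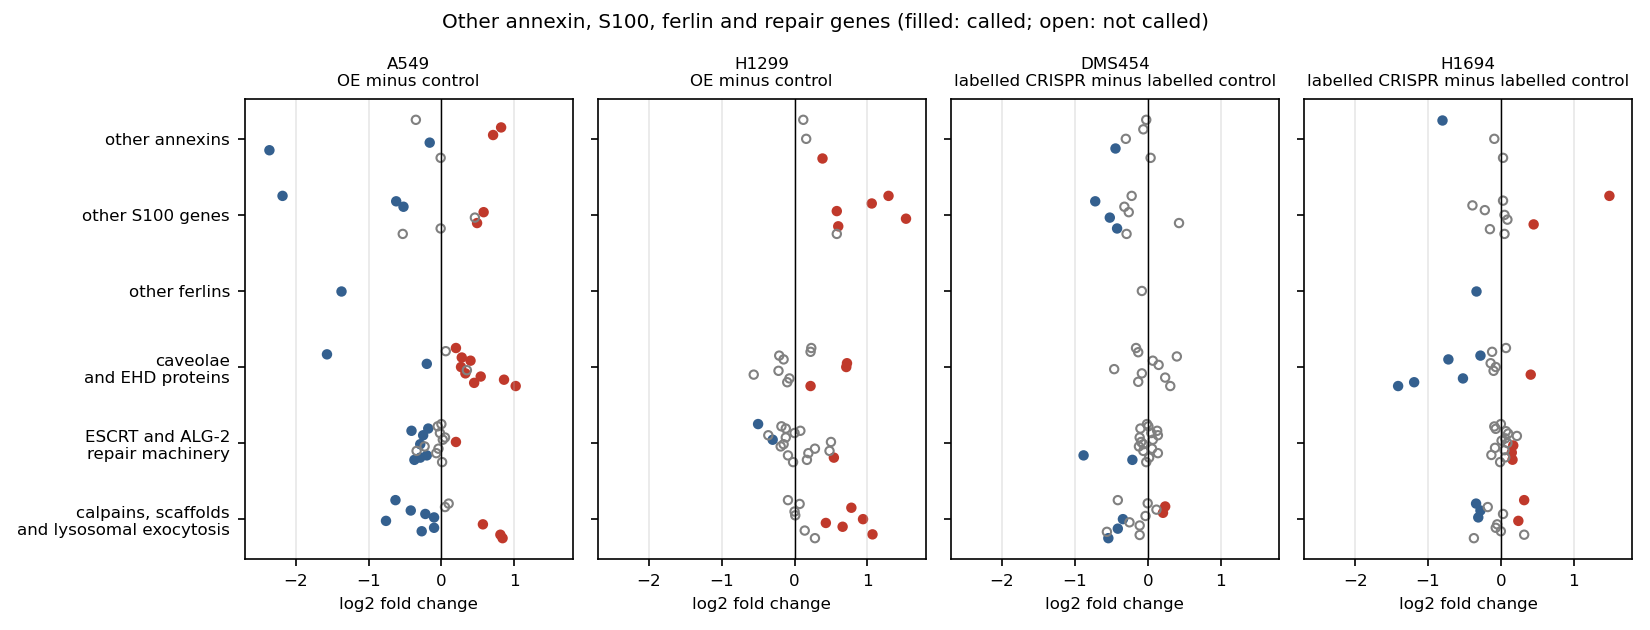
Log2 fold change of every tested gene of the 6 further lists, 1 point per gene, OE minus control in A549 and H1299 and labelled CRISPR minus labelled control in DMS454 and H1694. Filled points passed limma's adjusted p of 0.05, red where higher and blue where lower, and open points did not: caveolar and EHD genes hold 9 red and 2 blue points in A549, and 1 red and 5 blue points in H1694.

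Finally, genes were ranked by how closely they followed ANXA2 or MYOF, by Pearson's r over the 24 libraries after each line's mean was removed, among 10026 genes. Libraries of a line share their arms, so r is a description only. Closest to ANXA2 were VSIG10 (r = 0.924), the tetraspanin gene CD9 (r = 0.906), ARL6IP1 (r = 0.895) and PLP2 (r = 0.884). Of these CD9 and PLP2 had the wider differences, with log2 fold changes of -1.60 and -1.38 in DMS454 and 0.96 and 0.58 in H1299, while in A549 they stood at -0.03 and -0.32, unlike ANXA2.

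Closest to MYOF were SELENOW (r = 0.921), SNX7 (r = 0.915), STAT3 (r = 0.877) and KCTD9 (r = 0.873). SELENOW, a selenoprotein gene, had log2 fold changes of -1.42 in H1694 and 0.45 in A549. The others had smaller ones, of -0.58 for SNX7, -0.42 for STAT3 and -0.24 for KCTD9 in H1694, where MYOF was at -2.27.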

How the data were processed

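Total RNA of the 4 lines was made into strand-specific libraries, per the labels' protocols. Reads were trimmed with Trim Galore, aligned with STAR to hg38 and analysed with DESeq2, per the submitters' processing notes. For the versions, the read counter and the gene annotation: not given in the sources used here. Each library's deposited value is a signal, the authors' count divided by a size factor, called the normalized count here. The deposited log2 fold changes, Wald score and p-value columns of the authors were not used for any result. Whole reads were recovered from every deposited value within 0.01, so depth is 12704476 to 31770858 reads per library. In DMS454 and H1694 the authors' log2 fold changes have the libraries labelled control as numerator, opposite to the direction used here.

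Ensembl IDs were named through GENCODE 29. Genes whose mean normalized count reached 10 in 1 arm were tested per line with limma 3.58.1 (trend, robust) in R 4.3.3 on log2(normalized count + 1), with Benjamini-Hochberg adjustment over all genes of the line and a threshold of 0.05. A fold change on this scale understates that of low genes. The p-values and SEs rest on the spread between 3 libraries per group, which limma moderates toward a trend over all genes tested. Very small p-values therefore draw on that shared spread and not on a gene's own libraries alone. The written design named edgeR for raw counts, and limma was used because the tables hold normalized values. The limma script was tested on simulated data. Of each further list and line, up to 2 called genes of the largest absolute log2 fold change with a mean of at least 50 in the higher group were named. HEPACAM2, the 10 genes, the ANXA2 pseudogenes, and the 4 genes most like ANXA2 and the 4 most like MYOF were also named. Genes, lists and tests were chosen with earlier results of these data known. Alternatives were TMM scaling, no filter or a minimum mean of 50, a pseudocount of 5, edgeR 4.0.16 and DESeq2 1.42.0 on the recovered reads, the replicate number as a block, and each library left out. In H1299 both libraries numbered 1 were also left out together.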

Additional observations from a re-analysis of the deposited data

Results flagged for a closer look

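Several genes lay on opposite sides in 2 lines under the same kind of contrast, with every library of 1 line on the one side and every library of the other line on the opposite side. None of these differences between lines was tested, and the values below are the first line's log2 fold change minus the second's. Between A549 and H1299, OE minus control, the difference was -0.75 for ANXA4 (-0.44 in A549, 0.31 in H1299). It was -1.70 for CAPN5 (-0.76 in A549, 0.94 in H1299), -0.55 for CHMP1B (-0.37 in A549, 0.17 in H1299) and -0.83 for CHMP2A (-0.29 in A549, 0.54 in H1299). For EHD2 it was -0.90 (-0.20 in A549, 0.71 in H1299), and the H1299 arms of EHD2 met closely, at 977.6 in the lowest OE and 970.3 in the highest control library. Between DMS454 and H1694, labelled CRISPR minus labelled control, the difference was -0.37 for CHMP1B (-0.21 in DMS454, 0.16 in H1694) and 0.58 for STX4 (0.24 in DMS454, -0.34 in H1694).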

How the results depend on the processing

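The 10 genes were chosen on these contrasts, so how often they are called describes them and supports nothing. Of their 19 called fold changes, 14 were called under every alternative, 5 lost the call under at least 1, and 0 changed sign. Those that lost it were ANXA2 in A549, under edgeR, the block and 5 of the 6 fits without a library, and ANXA2, ANXA4, S100A11 and MYOF in H1299. Some not called gained a call. They were S100A10 in A549, ANXA1 in H1299 without both libraries numbered 1, ANXA4 and ANXA5 in DMS454 without labelled CRISPR replicate 3, and ANXA4 in H1694. Also among those not called, ANXA1, S100A10, S100A11 and MYOF in DMS454 and DYSF in H1694 changed sign under at least 1 alternative. Of the 35 fold changes of other list genes named by the stated rule, 24 kept the call throughout, 11 lost it somewhere and 0 changed sign. Fold changes outside the 10 genes and that rule were not followed under the alternatives. Among the differences between lines flagged above, these were CAPN5, CHMP2A and EHD2 in A549, CHMP1B in H1299 and STX4 in DMS454.

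The labels do not say whether libraries with the same replicate number were prepared together, and the correlations below cannot tell. The deviations of same-numbered libraries correlated at -0.54 to 0.12, and in no line did every library match its own number best. With the replicate block, the called genes of the 10 came to 3 in H1299 in place of 7, those of the further lists to 6 in place of 17, and all genes called to 1634 in place of 4665. The block left the counts of the other 3 lines within 1.5 times.

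With each library left out in turn, the called genes of the 10 numbered between 6 and 7 in A549, between 5 and 6 in H1299, from 2 to 4 in DMS454, and between 3 and 4 in H1694. Those of the further lists ran between 35 and 39 in A549, between 11 and 18 in H1299, from 6 to 22 in DMS454, and between 10 and 20 in H1694. Over all genes the calls were 2674 to 5429 in H1299, 1964 to 6605 in DMS454 beside 3560 with all libraries, and 1835 to 4510 in H1694 beside 3134. The highest DMS454 and H1694 values are those without the library that stood apart. Without both H1299 libraries numbered 1, the further lists had 32 calls and all genes 8922. The cause of these shifts was not tested.

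Depth limits the members with few reads, among them ANXA1, ANXA3, ANXA6, MYOF and DYSF in DMS454, ANXA1, ANXA3, ANXA5, S100A11 and DYSF in H1694, and DYSF in A549 and H1299.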

Other observations

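Some further repair genes, chosen after their values were seen, extend the account of caveolae and S100 genes. CAV1 and CAV2, which rose in A549 OE cells (log2 fold changes 1.02 and 0.45), fell in H1694 labelled CRISPR cells (-1.41, limma adjusted p = 0.019, and -1.19, adjusted p = 0.0051). CAV2 had 21.1, 14.1 and 13.45 normalized counts in those libraries, against 35.5, 36.04 and 41.2 in the libraries labelled control, and CAV1 had 19 reads in the labelled CRISPR and 49 in the labelled control libraries in all. S100A16 rose in A549 OE (0.49), H1299 OE (1.53) and H1694 labelled CRISPR cells (0.45). S100A4 fell in A549 OE cells (-0.52, adjusted p = 1.7e-12) and rose in H1299 OE cells (1.29, adjusted p = 0.008). SMPD1, the acid sphingomyelinase gene, fell in A549 (-0.42) and rose in H1299 OE cells (0.78), and rose in DMS454 (0.21) and fell in H1694 labelled CRISPR cells (-0.28).

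In DMS454, labelled CRISPR replicate 3 lay above all 3 labelled control libraries, while its replicates lay below them, for the repair genes TRIM72, BIN1 and PACSIN2. TRIM72, the muscle gene MG53 of membrane patching, had 188.8, 195.4 and 399.1 normalized counts in labelled CRISPR and 361.1, 329.2 and 290.6 in labelled control libraries. BIN1, a membrane-bending protein of muscle tubules, had 402.6, 395.3 and 802.5 in labelled CRISPR and 768.5, 762.6 and 704.9 in labelled control libraries. PACSIN2, which shapes caveolar necks, had 2447, 2486 and 3362 in labelled CRISPR and 2979, 2903 and 3084 in labelled control libraries. None of these was called by limma with all libraries.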
